A study of Homo sapiens with 8 samples.

Results

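Epithelial-mesenchymal transition regulators are the proteins that decide whether a cell keeps the junctions of an epithelium or takes on a motile, mesenchymal form. The 9 regulators described here, of 78691 genes in the count table, were taken by gene name, and each name stood on 1 row. SNAI1, SNAI2, ZEB1, ZEB2 and TWIST1 are transcription factors linked to the mesenchymal state. ESRP1 and ESRP2 are RNA-binding proteins that keep splicing in its epithelial pattern, and OVOL1 and OVOL2 are zinc finger transcription factors of epithelial cells.

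RNA sequencing was performed on 8 libraries in 4 groups of 2. C4-2B, a castration-resistant prostate adenocarcinoma line, was transduced with an empty lentivirus (control) or with one in which the EF1A promoter drives human MYCL and EGFP. NCI-H660, a neuroendocrine prostate cancer line, received a non-targeting shRNA (shCtrl) or shRNA against MYCL (shMYCL), for which the study's design names an adenoviral vector. The labels call the control C4-2B libraries biological replicates, and for the other groups nothing says that replicates came from separate cultures, so p-values there may measure technical spread. Transduced C4-2B cells were selected with puromycin or sorted. The study's methods describe transient adenoviral and stable lentiviral knockdown, and the treatment label speaks of stable knockdown, so the vector behind the shMYCL libraries rests on the design text alone.

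SNAI, ZEB and TWIST proteins bind E-box sequences and repress junction genes such as CDH1, which encodes E-cadherin. ZEB1 and ZEB2 are held down by the miR-200 family and repress its genes in turn, and OVOL proteins repress ZEB1. ESRP proteins splice transcripts such as FGFR2, CD44 and CTNND1 into their epithelial isoforms, and their genes are repressed by ZEB and SNAI factors. In prostate cancer, these regulators are studied for their part in invasion and in the shift of lineage toward neuroendocrine disease.

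Sequences from this circuit are shown where the libraries counted a transcript of the same locus. The mature miRNAs below lie within the gene MIR200CHG (chr12:6963226-6964447, plus strand, GRCh38), outside its annotated exons, at chr12:6963742-6963764 and chr12:6964155-6964176. Their poly(A) host transcript is in the count table, and the mature forms were not measured. Capitals mark the seed, bases 2 to 8, which pairs with target transcripts such as those of ZEB1 and ZEB2, and the seeds differ, so each is in a seed group of its own.
hsa-miR-200c-3p: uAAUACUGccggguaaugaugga
hsa-miR-141-3p: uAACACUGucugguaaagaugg

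RefSeq promoter windows (GRCh38.p14) were matched by symbol for 2 of the 9 regulators, ZEB1 with 7 windows and ZEB2 with 1. The 250 bases before the most upstream ZEB1 start (chr10:31318167-31318416, plus strand) are shown because all 250 lie in an exon of the antisense gene ZEB1-AS1, whose RNA the table also counts. Capitals mark the E-box, searched as CAGGTG on both strands (CACCTG on the other).
ZEB1 promoter: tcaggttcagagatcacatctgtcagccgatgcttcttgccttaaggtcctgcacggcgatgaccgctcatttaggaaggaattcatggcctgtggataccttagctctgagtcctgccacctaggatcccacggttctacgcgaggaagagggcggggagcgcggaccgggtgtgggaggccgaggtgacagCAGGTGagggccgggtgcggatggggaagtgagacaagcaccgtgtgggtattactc
The E-box was in 2 of the 7 ZEB1 windows and 0 of 1 ZEB2 windows, and 17.5% of all 35116 windows of this length held it. The match is of letters only, and binding was not measured.

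Library totals ranged from 15177071 to 32344170 counts, and mitochondrial genes took 9.63% to 10.7% of counts in C4-2B against 3.5% to 3.83% in NCI-H660 libraries. MYCL had 371 and 320 counts in C4-2B control, 65524 and 70253 in C4-2B MYCL, 1863 and 1602 in shCtrl and 165 and 198 in shMYCL libraries, in the order its labels give. The summed TPM (counts per gene length on a scale shared by all libraries) of 7 luminal prostate markers was 2274 to 2280 in C4-2B control, 1488 to 1625 in C4-2B MYCL, and 1.35 to 2.28 in NCI-H660 libraries, where KLK3, KLK2 and FOLH1 had 0 counts in both groups. That of 6 neuroendocrine markers was 946.2 to 1093 in shCtrl, 650.0 to 703.9 in shMYCL and 6.94 to 7.32 in C4-2B libraries. Tests below are edgeR quasi-likelihood tests, with p-values adjusted by Benjamini and Hochberg's method over all genes past the filter on low counts. A call needed an adjusted p below 0.05 together with a log2 fold change of 0.5 or more in either direction.

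At the level of the whole panel, ESRP1 had the most TPM of the 9 regulators in all 4 groups, and ZEB2 was at or near 0 in all. In C4-2B control cells the order by TPM was ESRP1, ESRP2, OVOL2, SNAI2, OVOL1 and SNAI1, with no overlap between neighbours, and then ZEB1, ZEB2 and TWIST1 at or near 0. With MYCL, the mean of SNAI2 stood above that of OVOL2, and their TPM overlapped. In shCtrl NCI-H660 cells the order was ESRP1, OVOL2 and OVOL1, then TWIST1, ESRP2 and SNAI1 with overlapping values, then ZEB1, SNAI2 and ZEB2. In shMYCL cells ESRP2 and SNAI1 stood above ZEB1 and TWIST1, which overlapped each other.

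**Figure D1:**
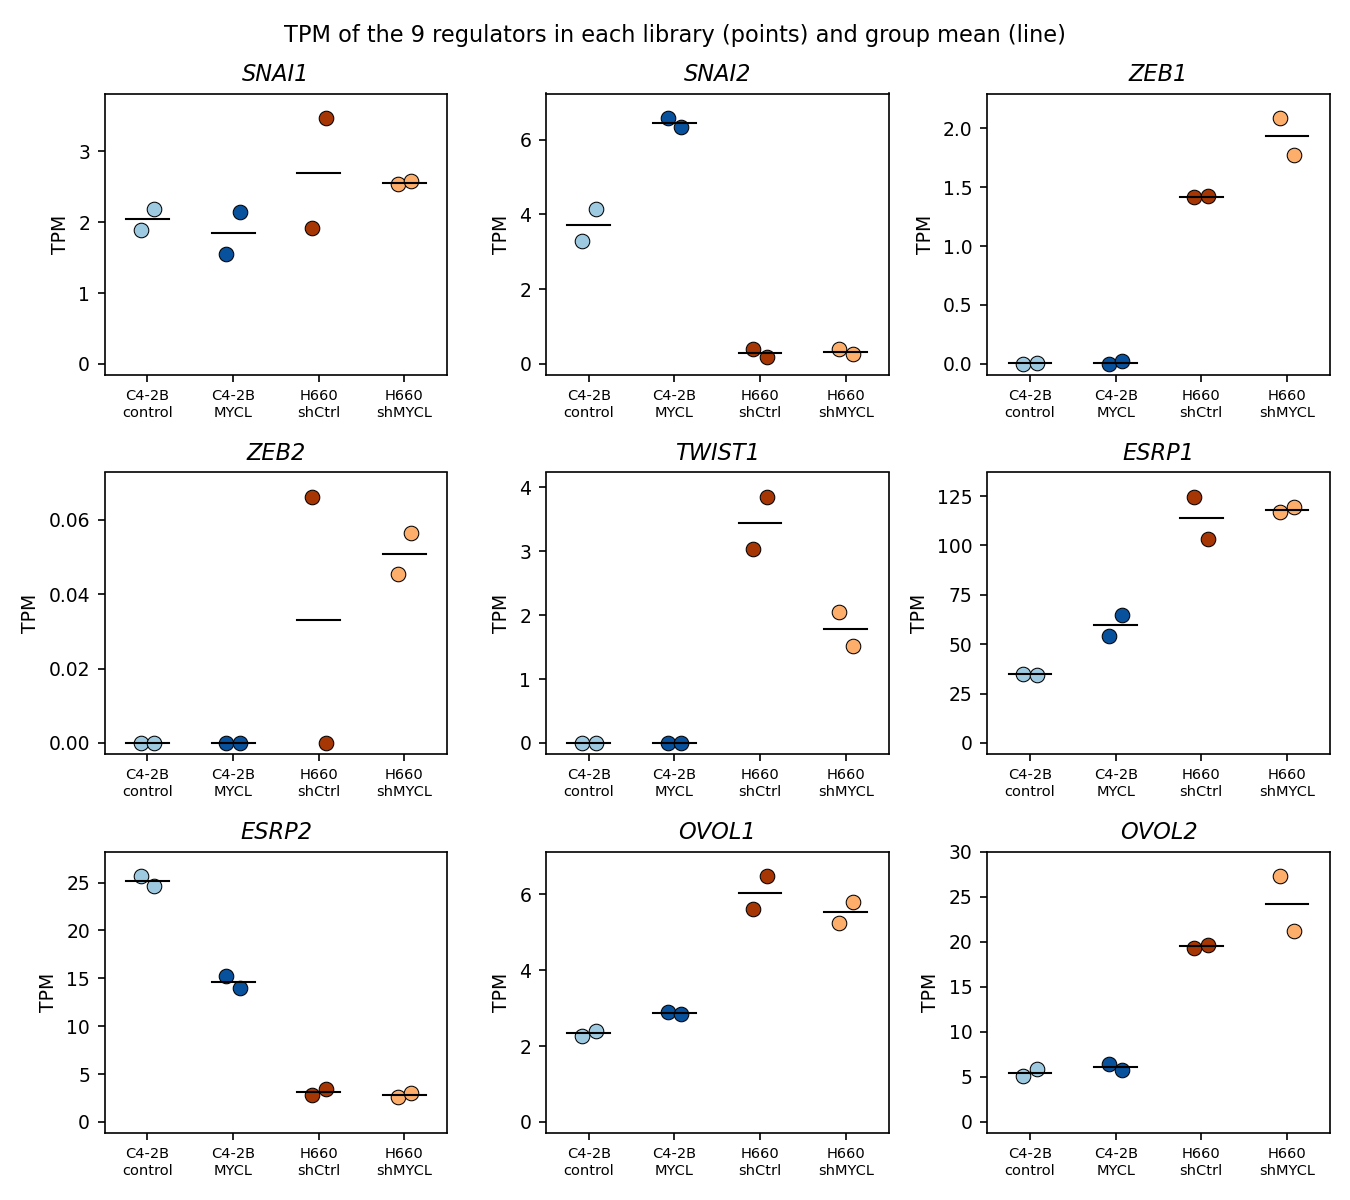
TPM (y axis, linear, one scale per gene) of the 9 regulators in the 4 groups (x axis), with a point for each of the 2 libraries and a line at their mean. ESRP1 reached 124.5 TPM in NCI-H660 while ESRP2 reached 25.7 in C4-2B, and ZEB1 and TWIST1 were above 1 TPM only in NCI-H660 libraries.

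MYCL overexpression in C4-2B cells raised SNAI2 and ESRP1 and lowered ESRP2, 3 of the 6 regulators tested. SNAI2 rose 1.93-fold and ESRP1 1.9-fold, and ESRP2 fell 1.56-fold. Of 16866 genes tested, 19.9% were called, 11.8% as higher and 8.12% as lower. The median log2 fold change was 0.37 over the 6 regulators and 0.00 over all genes. ZEB1, ZEB2 and TWIST1 were not tested because of their low counts.

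SNAI2 (Slug; chr8:48917598-48921740, minus strand) is a zinc finger repressor of junction genes. Its counts were 174 and 159 without and 209 and 205 with MYCL, the latter out of smaller library totals. In TPM, control libraries had 3.29 and 4.15 and MYCL libraries 6.58 and 6.33, so the groups did not overlap. In CPM (counts scaled by library size), SNAI2 had 6.01 ± 0.941 without and 11.5 ± 0.275 with MYCL (SD, n = 2 each). This was a log2 fold change of 0.95 (standard error 0.168, edgeR adjusted p = 0.00278). SNAI2 is among the genes the study picked from these libraries for a heatmap, so its direction is not independent evidence. On log2(TPM + 1) without a filter, limma's adjusted p was 0.0723, at a log2 fold change of 0.67.

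ESRP1 (chr8:94641074-94707466, plus strand), an epithelial splicing regulator, was read 3264 and 2305 times in control and 3039 and 3684 times in MYCL cells. Its TPM was 35.1 and 34.3 in control against 54.3 and 65.0 in MYCL cells. Every MYCL library was above both control libraries. ESRP1 had 98.6 ± 2.47 CPM without and 187.8 ± 32.4 CPM with MYCL (SD, n = 2 each), and its log2 fold change was 0.93 (standard error 0.109, edgeR adjusted p = 3.68e-04).

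ESRP2 (chr16:68229033-68238102, minus strand), its paralog, moved the opposite way in the same libraries. Its counts were 2231 and 1549 without MYCL against 794 and 741 with it, and the TPM values were 25.7 and 24.7 against 15.2 and 14.0. Both MYCL libraries lay below both control libraries. ESRP2 had 66.8 ± 2.48 CPM without and 42.7 ± 0.483 CPM with MYCL (SD, n = 2 each), and its log2 fold change was −0.65 (standard error 0.0785, edgeR adjusted p = 4.29e-04). ESRP2 shares 4.37% of its exon bases with NFATC3 on the opposite strand and 2.18% with a lncRNA on its own strand, and whether the counting used strand is not given in the sources used here.

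With these opposite changes, the TPM ratio of ESRP1 to ESRP2 was 1.37 and 1.39 without and 3.56 and 4.63 with MYCL. The sum of both moved less, from 60.8 and 58.9 TPM to 69.5 and 79.0 TPM. The ratio was 44.2 and 30.0 in shCtrl and 45.0 and 39.4 in shMYCL libraries, where the groups overlapped. The ratios and sums are descriptions, and no test was made on them.

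**Figure D2:**
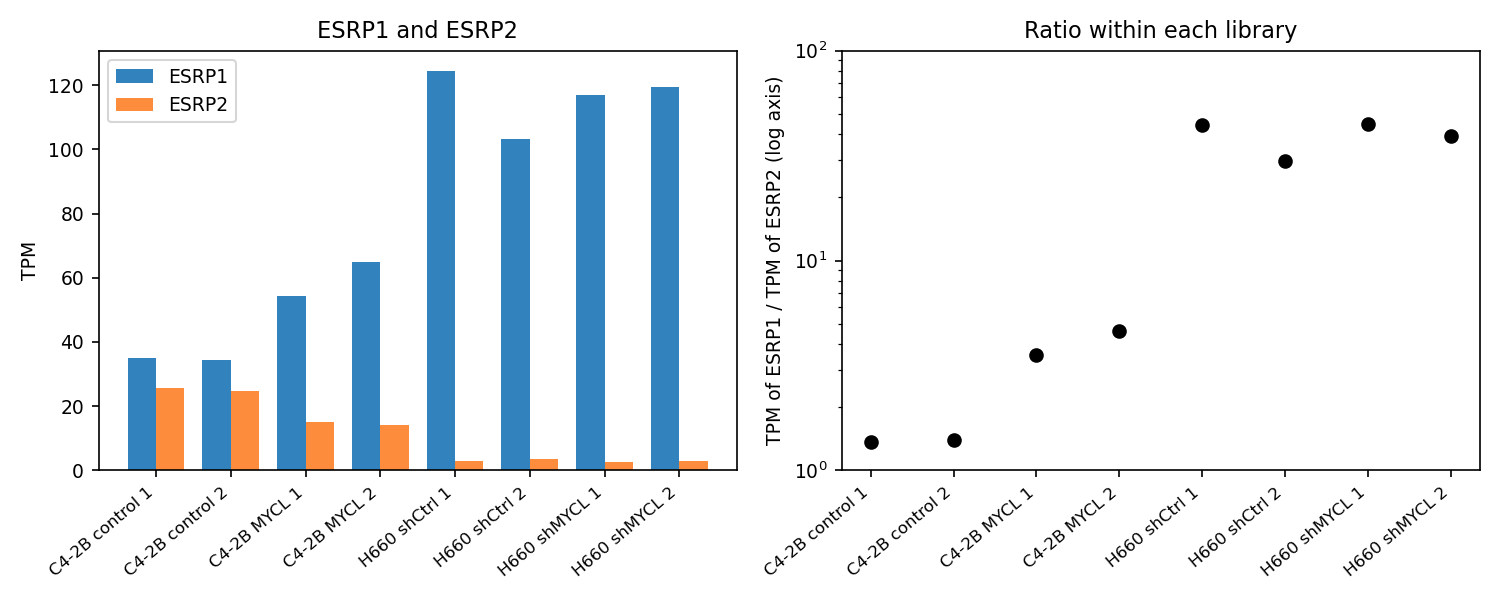
Left, TPM of ESRP1 and ESRP2 (bars from 0) in each of the 8 libraries. Right, the TPM of ESRP1 divided by that of ESRP2 in each library on a log axis, from 1.37 and 1.39 in C4-2B control through 3.56 and 4.63 in C4-2B MYCL to between 30.0 and 45.0 in NCI-H660 libraries.

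OVOL1 (chr11:65787063-65797214, plus strand) and OVOL2 (chr20:17956979-18059188, minus strand) did not pass the test in C4-2B cells. OVOL1 had 2.27 and 2.40 TPM without and 2.90 and 2.84 TPM with MYCL, which did not overlap, with a log2 fold change of 0.43 (95% interval 0.00235 to 0.865, edgeR adjusted p = 0.109). OVOL2 had 5.07 and 5.86 against 6.47 and 5.77 TPM, which overlapped, with 0.31 on the log2 scale (95% interval −0.104 to 0.718, edgeR adjusted p = 0.224). A lncRNA on the opposite strand covers 27.3% of the exon bases of OVOL1, with at most 25 counts in any library. OVOL2 shares 2.68% of its exon bases with SNX5, a far more abundant sorting nexin.

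SNAI1 (Snail; chr20:49982980-49988886, plus strand), a fast-turning-over repressor of CDH1, had 75 and 63 counts without and 37 and 52 with MYCL. Its TPM was 1.89 and 2.19 against 1.55 and 2.14, so the groups overlapped. The log2 fold change was 0.01 (95% interval −0.704 to 0.723, edgeR adjusted p = 0.986), an interval that holds changes past the fold threshold in either direction.

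ZEB1 (chr10:31318495-31529814, plus strand), TWIST1 (chr7:19020991-19117636, minus strand) and ZEB2 (chr2:144364364-144521057, minus strand) were at the limit of detection in C4-2B cells. ZEB1 had 0 and 1 counts without and 0 and 2 with MYCL. TWIST1 and ZEB2 had 0 counts in all 4 libraries, and by counting error alone such a 0 leaves room for 3 counts over the libraries of a group, or 0.0537 CPM without and 0.0825 CPM with MYCL. With MYCL, ZEB1 and TWIST1 stayed at 2 counts or fewer in each C4-2B library. In shCtrl NCI-H660 libraries ZEB1 had 75 and 89 counts and TWIST1 42 and 62, and no rise to that level was seen. A fall in C4-2B cells, or a rise of a few counts, was not detectable at this depth.

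In NCI-H660 cells, MYCL knockdown moved none of the 7 regulators tested past the threshold, by edgeR or by DESeq2, and 1 of them, TWIST1, was at an unadjusted p under 0.05 by edgeR. Of 16980 genes tested in this comparison, 16.2% were called, 7.18% as higher and 8.99% as lower. The median log2 fold change was −0.10 over the 7 regulators and 0.00 over all genes. SNAI2 and ZEB2 were not tested.

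TWIST1, a basic helix-loop-helix factor of mesoderm and of invasive tumours, had 42 and 62 counts in shCtrl and 26 and 20 in shMYCL libraries. Its TPM was 3.04 and 3.85 against 2.04 and 1.52, so both knockdown libraries lay below both controls. The log2 fold change was −0.96 (standard error 0.38, 95% interval −1.77 to −0.159, edgeR adjusted p = 0.0755). It was called when only genes with at least 10 counts in every library were tested, with −0.97 and an edgeR adjusted p of 0.0354. DESeq2 gave an adjusted p of 0.204.

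ZEB1, a zinc finger homeobox repressor, had 75 and 89 counts in shCtrl and 104 and 91 in shMYCL libraries. The TPM of 1.41 and 1.43 in shCtrl lay below the 2.08 and 1.77 in shMYCL libraries. Its log2 fold change of 0.45 (95% interval −0.0472 to 0.951, edgeR adjusted p = 0.177) did not pass. OVOL2 had 19.3 and 19.7 TPM in shCtrl and 27.3 and 21.2 in shMYCL libraries, also without overlap, and a log2 fold change of 0.30 (95% interval −0.0173 to 0.627, edgeR adjusted p = 0.158).

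The other 4 tested regulators had overlapping TPM in NCI-H660 cells. For ESRP1, at 124.5 and 103.2 TPM against 116.9 and 119.3, the 95% interval of the log2 fold change was narrow, from −0.187 to 0.258 around 0.04, and it did not reach the size of the change in C4-2B cells. ESRP2, at 2.82 and 3.44 against 2.60 and 3.03 TPM, had −0.16 (−0.659 to 0.337). OVOL1, at 5.60 and 6.48 against 5.25 and 5.79 TPM, had −0.12 (−0.505 to 0.265), and SNAI1, at 1.92 and 3.47 against 2.53 and 2.59 TPM, had −0.10 (−0.923 to 0.723). The edgeR adjusted p-values of these 4 ran from 0.663 to 0.883. SNAI2 had 8 and 4 counts against 7 and 5, and ZEB2 had 1 and 0 counts against 2 and 2.

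The response to MYCL was then compared between the lines as a difference of log2 changes from low to high MYCL, shCtrl minus shMYCL in NCI-H660 less MYCL minus control in C4-2B. MYCL itself changed by 8.26 on the log2 scale in C4-2B and by −3.06 with knockdown in NCI-H660 cells, so the sizes of the MYCL change were unequal. The response differed for ESRP1 and ESRP2. The difference was −0.96 on the log2 scale for ESRP1 (standard error 0.157, edgeR adjusted p = 0.00108) and 0.81 for ESRP2 (standard error 0.198, edgeR adjusted p = 0.0117). Of 19605 genes tested, 17.9% were called, 8.33% as higher and 9.59% as lower. The ESRP2 difference was 0.63 (edgeR adjusted p = 0.0565) without shCtrl replicate 2 and 0.71 (edgeR adjusted p = 0.0656) without shMYCL replicate 1.

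For the other regulators, the difference between the lines did not pass. It was −1.13 for SNAI2 (95% interval −2.42 to 0.161, edgeR adjusted p = 0.213), which had 4 to 8 counts in NCI-H660 libraries. For OVOL2 it was −0.61 (95% interval −1.11 to −0.107, edgeR adjusted p = 0.0841), and −0.63 with an adjusted p of 0.0471 when at least 10 counts were required in every library. OVOL1 and SNAI1 had −0.31 and 0.09, and for ZEB1 and TWIST1 the low counts of C4-2B cells leave no usable estimate.

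**Figure D3:**
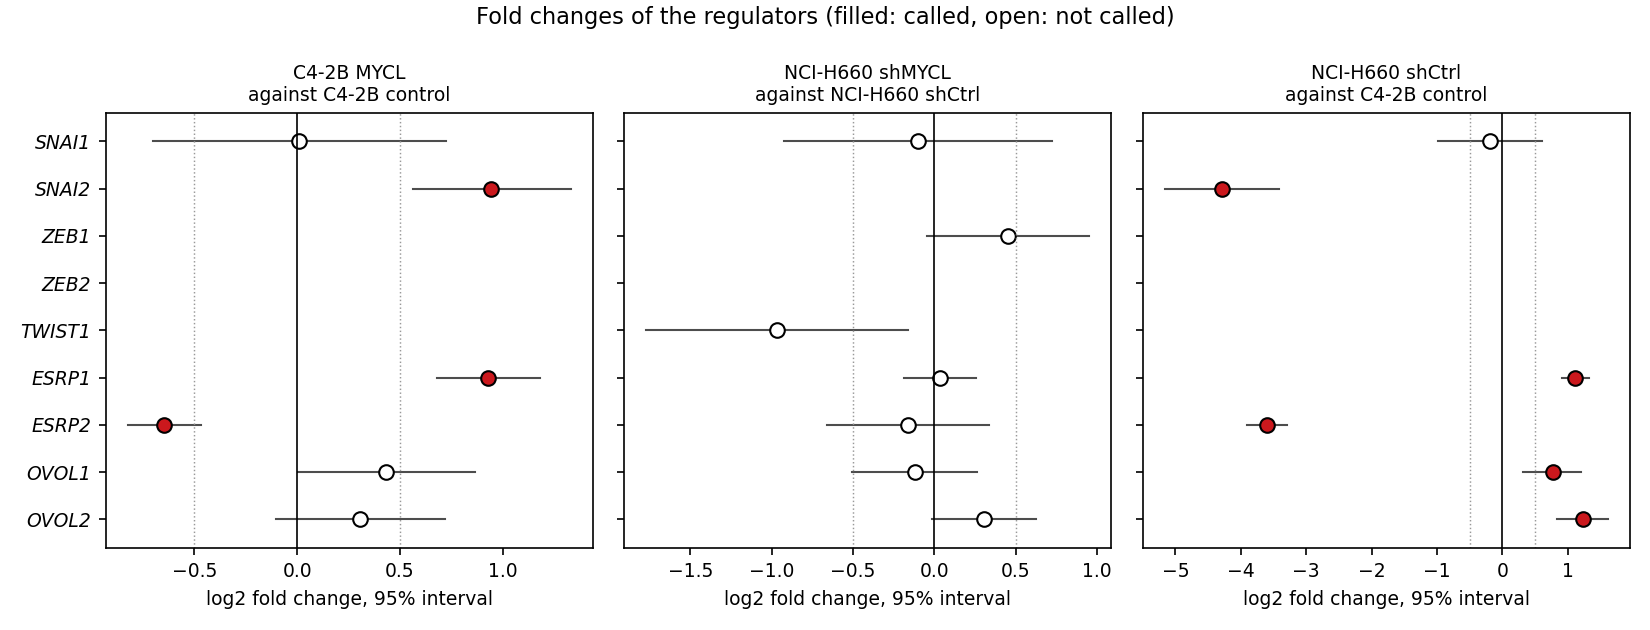
Log2 fold change (point) with its 95% interval (line) for each regulator tested, in C4-2B MYCL against control, NCI-H660 shMYCL against shCtrl, and NCI-H660 shCtrl against C4-2B control. Filled points were called, dotted lines mark 0.5 either side of 0, and the x axes differ. ZEB1 and TWIST1 are left out of the last panel because C4-2B control libraries had 0 or 1 counts. The SNAI2 call in that panel was fixed by the filter on low counts. SNAI2, ESRP1 and ESRP2 are filled in the first panel, and no point is filled in the second.

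The control libraries of the lines differed in most regulators. NCI-H660 cells had more ESRP1, OVOL1, OVOL2, ZEB1 and TWIST1 RNA and less SNAI2 and ESRP2 RNA than C4-2B cells. SNAI2, ZEB1 and TWIST1 passed the filter through 1 line alone, so their calls were fixed by the filter. Of the 5 with at least 10 counts in every control library, 4 were called, 3 higher and 1 lower, where 71.6% of 18748 genes were called, 37.4% as higher and 34.2% as lower. The share of all genes also counts those that passed the filter through 1 line, so it is not a like set for these 5. Line, vector type and culture are the same split and cannot be told apart.

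Among factors of the mesenchymal state, SNAI2 had 8 and 4 counts in shCtrl against 174 and 159 in C4-2B control libraries. Its TPM was 0.410 and 0.177 against 3.29 and 4.15, and edgeR put it 19.5-fold lower (log2 fold change −4.29). The SNAI2 call was fixed by the filter, as stated above. ZEB1 had 164 counts over both shCtrl libraries and 1 over both C4-2B control libraries. After scaling by library totals alone this was a ratio of 259, with an exact 95% counting interval of 45.8 to 1.03e+04. TWIST1 had 104 counts against 0 and was at least 54.7-fold higher, with the same scaling and the same floor of 3 counts over the group. The ZEB1 and TWIST1 values lack the further normalization between libraries that the edgeR folds have. SNAI1 had a log2 fold change of −0.19 (95% interval −0.986 to 0.609, edgeR adjusted p = 0.643), and TPM values put it at 0.25. On log2(TPM + 1) the median gene itself stood at 0.57, against 0.04 from counts, and at −0.14 in the C4-2B comparison.

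Among the epithelial regulators, ESRP2 was 12.2-fold lower in NCI-H660 cells, at 2.82 and 3.44 TPM against 25.7 and 24.7 (log2 fold change −3.61, standard error 0.138, edgeR adjusted p = 4.38e-10). ESRP1 was 2.17-fold higher (log2 fold change 1.12, standard error 0.0911, edgeR adjusted p = 3.32e-07), and OVOL2 2.34-fold higher (log2 fold change 1.23, standard error 0.176, edgeR adjusted p = 4.6e-05). OVOL1 was 1.7-fold higher (log2 fold change 0.77, standard error 0.204, edgeR adjusted p = 0.00434), and with TPM values centred on each library's median its log2 difference was 0.36 with a limma adjusted p of 0.0576. This comparison shares its C4-2B control libraries with the MYCL comparison.

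The noncoding partners of the ZEB genes were measured as well. ZEB1-AS1 (chr10:31206278-31320447, minus strand), the antisense RNA whose annotated start lies within ZEB1 and which covers the promoter shown above, had 139 and 86 counts in C4-2B control, 116 and 125 in C4-2B MYCL, 222 and 185 in shCtrl and 79 and 112 in shMYCL libraries. It rose with MYCL in C4-2B cells (log2 fold change 0.76, standard error 0.218, edgeR adjusted p = 0.0243) and fell with MYCL knockdown in NCI-H660 cells (−0.90, standard error 0.212, edgeR adjusted p = 0.00609). ZEB1 itself had at most 2 counts in C4-2B libraries, and in shMYCL libraries its log2 fold change was 0.45, on the other side of 0 from that of ZEB1-AS1. The genes share 396 exon bases, 4.58% of those of ZEB1 and 10.3% of those of ZEB1-AS1, so without strand some reads could fall to either.

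MIR200CHG, the host transcript of the miRNAs shown above, had 96 and 67 counts in C4-2B control, 47 and 54 in C4-2B MYCL, 8 and 17 in shCtrl and 11 and 11 in shMYCL libraries. Its log2 fold change was −0.03 with MYCL (edgeR adjusted p = 0.937) and 0.03 with knockdown (edgeR adjusted p = 0.982). Between the control libraries it was lower in NCI-H660 cells, at −2.20 on the log2 scale. With as few as 8 counts in shCtrl libraries, it passed the filter through C4-2B libraries alone, so this call was fixed by the filter. ZEB2-AS1 had 0 counts in all 8 libraries, and OVOL1-AS1 had at most 2 in any.

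Other genes linked to the epithelial or mesenchymal state were described from lists of other factors, junction genes, mesenchymal markers, splicing and TGF-beta signalling. Whether the regulators act on these genes was not tested. In C4-2B MYCL cells, 8 of 29 epithelial junction and polarity genes rose and 0 fell by edgeR (median log2 fold change 0.19), with 21 not called. At an unadjusted p under 0.05, 14 were higher and 5 lower, and DESeq2 called 9 higher and 0 lower. Over all genes tested, edgeR called 11.8% higher and 8.12% lower. TJP3, a tight junction scaffold, had 1.05, CLDN4, a claudin, 0.82 and PRSS8, a membrane serine protease, 0.75. CDH1, at 152.0 and 166.4 TPM without and 183.9 and 181.8 TPM with MYCL, had 0.34 (edgeR adjusted p = 0.00746), under the fold threshold. EPCAM, an epithelial adhesion molecule, had −0.32 (edgeR adjusted p = 0.00969), and GRHL2, an activator of junction genes, −0.10.

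Mesenchymal marker genes were measured in the same C4-2B cells. Of 26 listed, 12 could be tested, and 6 rose and 1 fell by edgeR (5 and 0 by DESeq2). Over all genes tested in this comparison, 11.8% were called higher and 8.12% lower. A gene that passed the filter through the MYCL or the control libraries alone had to be higher there. This held for ACTA2, among those that rose, with 8 and 5 counts without and 33 and 45 with MYCL. It also held for COL5A2, the 1 that fell, with 25 and 16 counts without and 2 and 4 with MYCL. The calls of ACTA2 and COL5A2 were thus fixed by the filter. VIM, an intermediate filament of mesenchymal cells, had 15.8 and 18.1 TPM without and 31.0 and 27.1 TPM with MYCL (log2 fold change 0.91, standard error 0.0962, edgeR adjusted p = 2.17e-04). COL1A1, a fibrillar collagen, had 0.74 and TAGLN, an actin-binding protein, 0.71. VIM and COL1A1 are, like SNAI2, among the genes that the study picked from these libraries. The summed TPM of 6 fibroblast markers was 0.236 to 0.439 in control and 0.372 to 0.903 in MYCL libraries, with DCN, LUM and PDGFRA at 0 counts. That of 4 leukocyte markers was 8.86 to 11.4 and 24.1 to 26.0, with PTPRC at 0 in both groups, and CD68, which tumour cells also express, at 8.30 and 10.8 against 23.9 and 25.6 TPM made up most of the sum. That of 3 endothelial markers was 1.06 to 1.19 and 1.38 to 1.48. The part of these markers in the results was not tested. CDH2, which encodes N-cadherin, had 0 counts in all C4-2B libraries.

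In NCI-H660 cells, MYCL knockdown lowered 5 of 29 junction genes and raised 1 by edgeR (4 and 1 by DESeq2), with a median of −0.22. Over all genes tested, 8.99% were lower and 7.18% higher. DSP, a desmosomal plaque protein, had −0.89, CLDN3 −0.81 and CLDN4 −0.68, and RAB25, a trafficking GTPase, 0.67. CDH1 had −0.23 (edgeR adjusted p = 0.114), EPCAM −0.18 (0.237) and GRHL2 −0.07 (0.695). Of 15 mesenchymal markers tested, 2 rose and 3 fell. SPARC, a matrix glycoprotein, had 130 and 156 counts in shCtrl and 9 and 11 in shMYCL libraries. Its TPM was 6.42 and 6.28 against 0.592 and 0.616, a log2 fold change of −3.62. SPARC passed the filter through shCtrl libraries alone, so its call as lower was fixed by the filter. LOX, a collagen cross-linking oxidase, had −1.31 and COL1A2 −0.68. TNC, a matrix protein, had 1.76 and TAGLN 1.22, while VIM and CDH2 had 0.10 and 0.42 and did not pass. Summed fibroblast markers were 2.13 to 2.33 TPM in shCtrl and 0.924 to 1.20 in shMYCL libraries, with DCN, PDGFRB, THY1 and COL3A1 at 0 counts. LUM, at 1.977 to 2.205 TPM in shCtrl and 0.906 to 1.195 TPM in shMYCL libraries, made up most of the fibroblast sum. Summed endothelial markers were 2.87 to 3.64 against 0.883 to 2.53 TPM, with CDH5 lower by edgeR (−0.91, adjusted p = 0.0482) but not by DESeq2 and PECAM1 at 0 counts in shMYCL libraries. Summed leukocyte markers were 0.132 to 0.563 against 0.337 to 0.404 TPM. The part of these markers in the results was not tested.

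Other transcription factors of the epithelial state split in C4-2B MYCL cells, with 3 of 10 tested rising and 2 falling, against 11.8% and 8.12% of all genes. ELF3, an epithelial ETS factor, had 1.90 and KLF4 0.66, against −0.88 for ELF5 and −0.75 for KLF5. In shMYCL cells ELF3 and EHF, both ETS factors, had −0.73 and −0.65, and 0 of the 10 tested rose by edgeR, at an unadjusted p under 0.05 or by DESeq2. Of all genes tested with knockdown, 7.18% were called higher and 8.99% lower, so 0 of 10 is near the share of all genes. Of factors linked to the mesenchymal state other than the regulators themselves, SOX9 had 0.68 and TCF4 −1.11 with MYCL, among 4 tested, where DESeq2 called 0 higher and 1 lower. FOXC1 and SOX9 had −1.52 and −1.31 with knockdown, among 7 tested. None of the 12 corepressors and turnover enzymes of SNAI and ZEB proteins was called by edgeR or DESeq2 in either line. At an unadjusted edgeR p under 0.05, 2 of them were lower with MYCL, and with knockdown 1 was higher and 1 lower. Of all genes tested, edgeR called 19.9% with MYCL and 16.2% with knockdown.

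Among 12 tested genes of the splicing list, SRSF1, MBNL1 and PTBP1, which are splicing factors themselves, had −1.04, −0.67 and −0.61 with MYCL, and 0 rose by edgeR or DESeq2 (2 were higher at an unadjusted p under 0.05). With knockdown, 2 of 13 rose and 0 fell by edgeR or DESeq2 (1 was lower at an unadjusted p under 0.05). Of all genes, edgeR called 11.8% higher and 8.12% lower with MYCL, and 7.18% higher and 8.99% lower with knockdown. CTNND1, which encodes the E-cadherin partner p120-catenin and is a splicing target of ESRP proteins, went from 129 and 136 to 251 and 233 counts (log2 fold change 1.07, standard error 0.166, edgeR adjusted p = 2.92e-04), and ARHGEF11 had 0.84. CTNND1 had 13343 and 9990 counts in C4-2B control libraries, so the shCtrl level was far lower (log2 fold change −5.96, standard error 0.109, edgeR adjusted p = 3.74e-12). CDH1 was also lower in shCtrl NCI-H660 than in C4-2B control cells (−1.88), while EPCAM was higher (2.31) and GRHL2 lower (−1.36). The table counts genes, so isoform use was not measured.

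In the TGF-beta list, 3 of 12 tested genes rose and 2 fell with MYCL in C4-2B cells, against 11.8% and 8.12% of all genes. TGFB1, a ligand among those that rose, had 10 to 17 counts in control and 25 to 35 in MYCL libraries. It passed the filter through MYCL libraries alone, so its call as higher was fixed by the filter. SMAD3, a signal transducer, had 0.90, ACVR1B, a type I receptor, 0.66 and SKI, a SMAD corepressor, −0.65. With knockdown in NCI-H660 cells, 3 of 14 rose and 1 fell, against 7.18% and 8.99% of all genes. TGFB2, a ligand, had 1.73 from low counts, SKI 0.63 and SMAD4 0.62, and TGIF1, a corepressor, had −0.85.

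**Figure D4:**
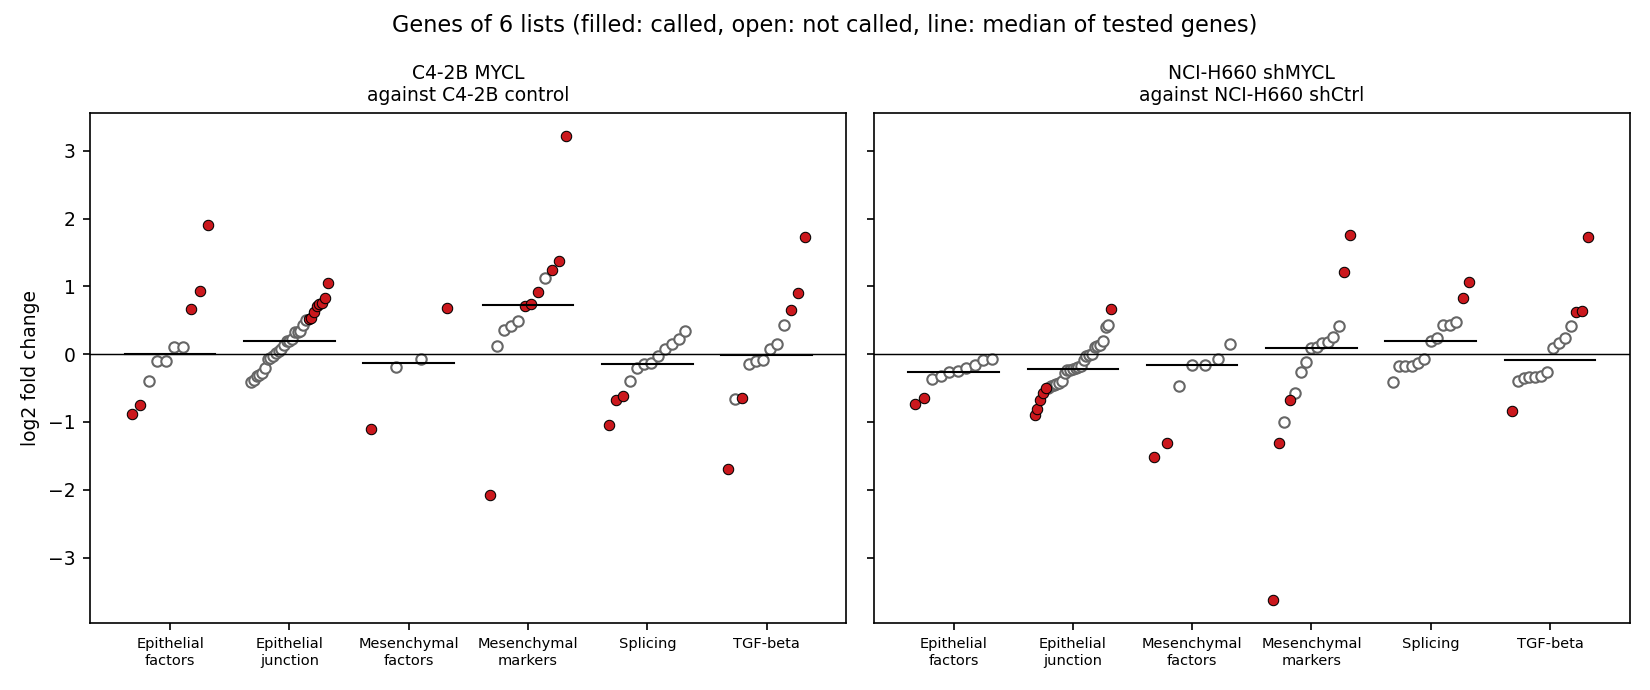
Log2 fold change (y axis) of each tested gene of 6 lists (x axis, genes sorted within a list) with MYCL overexpression in C4-2B and with MYCL knockdown in NCI-H660 cells. Filled points were called and the line is the median of the tested genes. In the junction list, called genes are 8 higher and 0 lower on the left, and 1 higher and 5 lower on the right.

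Genes with the profile most like that of a regulator over the 8 libraries were found by the root mean square distance of row-centred log2 CPM, for the 5 regulators that were tested in all comparisons. ESRP1 lay nearest to NEBL (distance 0.116) and DYRK3 (0.125), and ESRP2 to MIPEP (0.116) and CYB5D1 (0.155). OVOL1 lay nearest to SEL1L3 (0.0648) and PFKL (0.0747), and OVOL2 to WRAP73 (0.0442) and GNAS (0.0927). SNAI1 had ACD (0.145) and TMEM238 (0.164). The 8 points share libraries and fall into 2 lines, so the distances are descriptions.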

How the data were processed

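The authors deposited estimated counts per gene (22.4% of non-zero values are not whole, tolerance 0.01), not normalized between libraries, and TPM values that they made from counts, Ensembl gene lengths and a common sum. The TPM table holds 65535 of the 78691 genes. The submitters' processing notes name hg38. The aligner and counter are not given in the sources used here. Counts were rounded and tested in edgeR 4.0.16 (R 4.3.3; TMM, filterByExpr, quasi-likelihood test), each line on its own, the control libraries together, and all 8 libraries for the difference between lines. Standard errors were derived from the fold change and test statistic. The scripts were tested on simulated data. Biological coefficients of variation were 0.083 to 0.097. Replicates differed by more than sampling noise (chi-square per degree of freedom 5.13 to 12.8). With 2 libraries against 2, an exact permutation test cannot go below p = 0.33.

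Alternatives were DESeq2 1.42.0, RLE size factors, no filter, at least 10 counts in every library, 1 fit of all groups, a replicate block, fold thresholds of 0 and 1, limma 3.58.1 on log2(TPM + 1) and log2(TPM + 0.1) with TPM of at least 1 in 2 libraries, without that filter or centred, and leaving out each library. Named genes are the 9 regulators, CDH1, EPCAM, GRHL2, VIM, CDH2, antisense partners, MYCL and, per list and direction, up to 3 called genes with the largest change and a mean log2 CPM of at least 1. The level of CTNND1 in C4-2B cells, that of LUM in NCI-H660 cells, CD68, CDH5, TGFB1, ACTA2 and COL5A2 were named after their values were seen. Some genes are not reported here. The members and lists were chosen with earlier results of these data known. Positions and exon overlaps are from GENCODE 44, which holds 61458 of the identifiers. Promoter and miRNA sequences are from RefSeq (GRCh38.p14). The exact counting interval of the ZEB1 ratio and the floors cover counting error only. Intervals of log2 fold changes rest on the edgeR standard errors, which also take in the spread between libraries.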

Additional observations from a re-analysis of the deposited data

Results flagged for a closer look

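The effect of high against low MYCL differed between NCI-H660 and C4-2B cells for 2 of the 8 regulators tested, by the test of the difference itself, and the low counts of ZEB1 and TWIST1 in C4-2B cells gave no usable estimate for them. For ESRP1 it was −0.96 on the log2 scale (edgeR adjusted p = 0.00108), with 0.93 in C4-2B MYCL against control and 0.04 in NCI-H660 shMYCL against shCtrl. For ESRP2 it was 0.81 (edgeR adjusted p = 0.0117), with −0.65 in C4-2B MYCL against control and −0.16 in NCI-H660 shMYCL against shCtrl. The ESRP2 call was lost without shCtrl replicate 2 (edgeR adjusted p = 0.0565) and without shMYCL replicate 1 (0.0656). Of all 19605 genes tested, 17.9% were called in this test. The lines also differ in the size of the MYCL change (5.93 to 1399 mean TPM in C4-2B, 6.59 to 56.2 in NCI-H660), in vector and culture, and in mitochondrial share (9.63% to 10.7% against 3.5% to 3.83%), and which of these goes with the difference cannot be told apart.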

How the results depend on the processing

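The calls of SNAI2, ESRP1 and ESRP2 in C4-2B cells, 3 in all, were 0 with a minimum log2 fold change of 1, and all leave-one-out fits kept 3. In NCI-H660 cells, 0 regulators were called, and 1 (TWIST1) with at least 10 counts in every library, where fewer genes were tested. Between control libraries, 7 were called, SNAI2, ZEB1 and TWIST1 among them, and 4 with at least 10 counts, since low regulators then leave the test. The difference between lines gave 2 calls, 1 to 2 over the leave-one-out fits and 0 with a minimum of 1.

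SNAI1, never called, changed sign. In C4-2B cells it was −0.01 without a filter (−0.0123) and with a replicate block (−0.0128), −0.10 on log2(TPM + 1) with and without a filter, −0.15 on log2(TPM + 0.1), and −0.30 to 0.28 over the leave-one-out fits. Between control libraries it was 0.25 on log2(TPM + 1) with and without a filter, 0.33 on log2(TPM + 0.1) and −0.71 to 0.23 over the leave-one-out fits. For the difference between lines, leaving out a library gave −0.45 to 0.49 for SNAI1 and −3.80 to 1.56 for ZEB1. In NCI-H660 cells, leaving out a library gave −0.49 to 0.46 for SNAI1, −0.0453 to 0.126 for ESRP1, −0.325 to 0.0359 for ESRP2 and −0.234 to 0.0143 for OVOL1, none of them called. The cause was not tested.

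Same-numbered libraries did not deviate together (correlations 0.0194 to 0.0262 over 19605 genes). With 2 libraries per group, these correlations cannot show whether same-numbered libraries were cultured or prepared together. With the replicate block, 3, 0, 7 and 2 regulators were called in the 4 comparisons, the same counts as without it. Over all genes, calls in C4-2B cells were 3355, and 1940 on unfiltered log2(TPM + 1), 5895 with a fold threshold of 0 and 1411 with 1. In NCI-H660 cells they were 2745, and 1702, 1600, 1692 and 1 on log2(TPM + 1), log2(TPM + 0.1), centred and unfiltered TPM, 4204 with a fold threshold of 0 and 1022 with 1. Between control libraries they were 13427, and 8934 with at least 10 counts. For the difference between lines they were 3513, and 1898 on unfiltered log2(TPM + 1) and 1666 with a fold threshold of 1. Low counts limit SNAI1, TWIST1 and ZEB1. A fall of ZEB2 or TWIST1 within C4-2B cells, or a rise of a few counts, was not detectable.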
